A study of Sus scrofa with 8 samples.

Results

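The enzymes that carry pyruvate carbon into the mitochondrion's citric acid cycle and through its first oxidative steps were compared between infarcted and remote pig myocardium. The 7 genes described are PDHB, CS, IDH3A, IDH3B, IDH3G, IDH2 and SUCLA2. They were taken by their symbols from the deposited table that names transcripts, and all 7 of 7 were found there, out of 1342 genes that the table names. That table is limited to transcripts whose group averages by the authors differed at least 2-fold between the same 2 tissues, at a p under 0.05 before adjustment. Those averages give less weight to an outlying sample, so a mean change given here can be under 2-fold, as for ACLY below. Because of the selection, whether a member differed between the tissues is given as a description. The comparisons between members use the same changes, whose range is limited too, since no gene with a small change could be a member. The selection did not ask which member changed more.

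The samples came from 4 young female Large White pigs, each giving 1 infarcted and 1 remote sample (8 samples, 4 infarcted and 4 remote). A balloon had closed the left anterior descending coronary artery for 90 min before the vessel was reopened. Infarcted tissue was taken from the anterior wall of the left ventricle and remote tissue from the posterior wall of the same heart. The 2 tissues therefore share the heart and the amiodarone, acetylsalicylic acid and antibiotics given to every pig. The paper, citing earlier work, describes remote myocardium as not deprived of oxygen, so ischemia and reperfusion of the tissue itself are not shared. No heart without an infarct was compared here. Only pigs with a large infarct and a reduced ejection fraction had been kept in the study. The study's methods place tissue collection 10 days after the infarction, and its deposited design text places it at 7 days. RNA was read on porcine gene arrays with 25470 transcript clusters, and the values are log2 signals, on which a difference of 1 is a doubling.

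As background, the pyruvate dehydrogenase complex turns pyruvate into acetyl-CoA, which citrate synthase joins to oxaloacetate to make citrate. Further on, isocitrate dehydrogenase makes alpha-ketoglutarate, and succinyl-CoA and then succinate follow. The NAD-linked enzyme, built from the IDH3A, IDH3B and IDH3G subunits, feeds NADH to the respiratory chain, while the NADP-linked mitochondrial enzyme IDH2 makes NADPH, which serves antioxidant defence. Heart muscle is dense in mitochondria and draws most of its ATP from oxidation through this cycle.

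All 7 members had lower signals in the infarcted than in the remote sample of each of the 4 pigs. By the limma fit over all transcripts 6 of the 7 fell, at an adjusted p under 0.05, and SUCLA2 did not pass. This fit took the samples as unpaired. Each member's SE, adjusted p and calls with arrays left out are from it unless the block is named. With the pig as a block in the same fit 7 of the 7 fell, beside 5.66% of the array. Their adjusted p in the blocked fit was at most 0.0206, for IDH3G. The block was not combined with leaving out arrays. In the unpaired fit over the whole array 3.42% of transcripts fell by that limit, and since the naming table was selected on this contrast nothing is read from the difference. On the log2 scale the members' median change was −1.66, beside 0.02 for all transcripts. In 5 of the 7 members every infarcted sample lay below every remote one, a pattern that 5.06% of all transcripts showed. A lower signal in all 4 pigs was found in 13.6% of all transcripts. In these bulk samples fewer cardiomyocytes and less RNA per cardiomyocyte cannot be told apart.

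**Figure D1:**
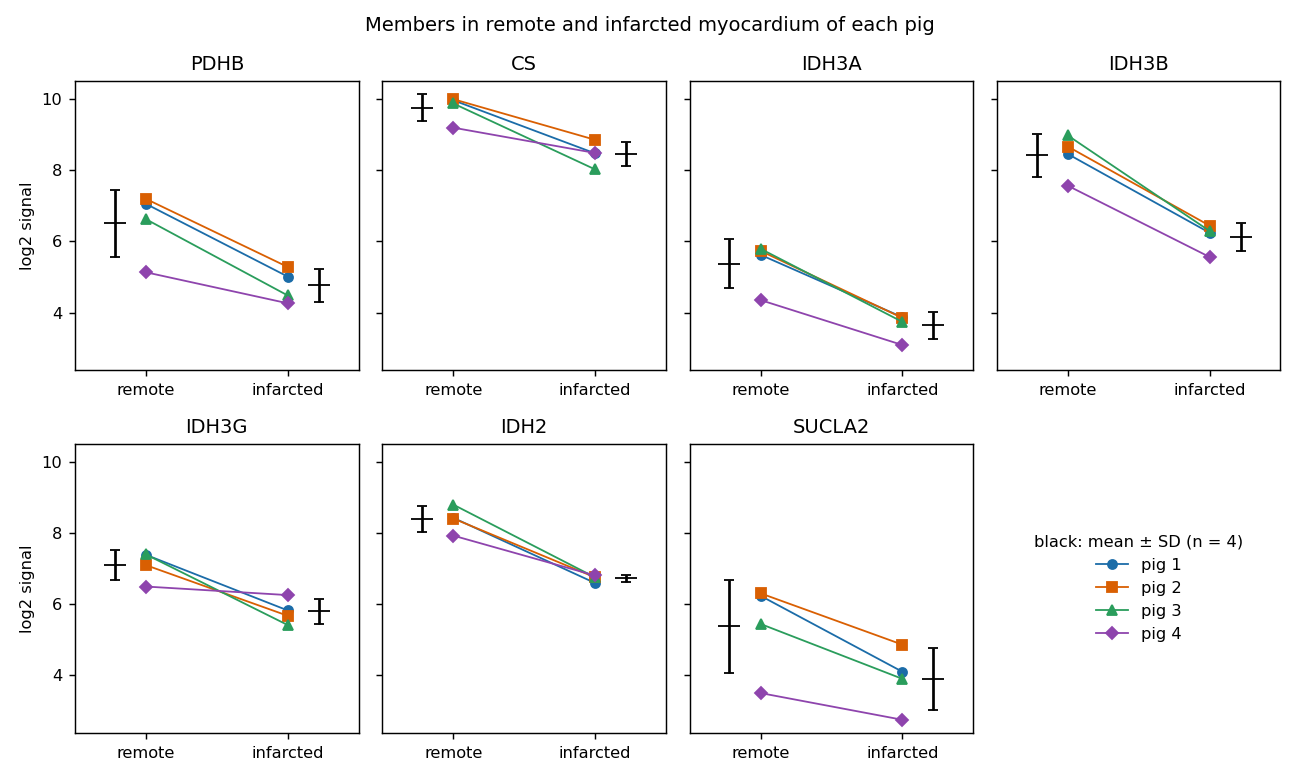
Log2 signal of each member in the remote and the infarcted sample of each pig, with lines joining the samples of 1 pig and black marks for the mean ± SD of 4 samples. Every line goes down from remote to infarcted tissue, and pig 4 has the lowest remote signal in all 7 panels.

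The arrays of pig 4 stood apart before any gene was considered. The SD of all log2 signals was 1.49 on its remote array and 1.46 on its infarcted array, against 1.68 to 1.84 on the other 6 arrays, while the array medians lay between 2.96 and 3.22. Bright transcripts were thus dimmer in pig 4 than in the other pigs. Without both of its arrays 7 of 7 members fell, beside 7.48% of the array. Without both arrays of pig 1, 0 members passed, although the log2 changes of the members still lay between −2.30 and −1.21, and fewer transcripts of the whole array passed as well (109 fell).

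PDHB, the beta subunit of the component of pyruvate dehydrogenase that removes carbon dioxide from pyruvate, is the only member upstream of the cycle itself. Its log2 signal was 7.05, 7.19, 6.62 and 5.13 in the remote samples of pigs 1 to 4. In the infarcted samples it was 5.01, 5.28, 4.48 and 4.26. Remote pig 4 lay below infarcted pig 2, so the groups overlapped by that sample, although each pig had its lower value in the infarct. The signal fell by 1.74 on the log2 scale (SE 0.43, adjusted p = 0.0391), a 3.34-fold difference. Without pig 4 it fell by 2.03 (adjusted p = 0.000758). In the unpaired fit the call was lost without any 1 of the 8 arrays other than remote pig 4, with adjusted p up to 0.129. With the pig as a block in limma and all arrays, the SE was 0.25 and the adjusted p 0.0035. The table lists 2 clusters for PDHB that hold identical values on every array, and they were counted once.

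CS, citrate synthase, which commits acetyl-CoA to the cycle and is widely used as an index of mitochondrial content, had 9.96, 9.99, 9.87 and 9.19 as log2 signals in remote pigs 1 to 4. The infarcted values were 8.47, 8.85, 8.02 and 8.48. The groups did not overlap, and the remote samples of pigs 1 to 3 were nearly equal with pig 4 below them. CS fell by 1.30 (SE 0.26, adjusted p = 0.0155), which is a 2.46-fold lower signal. Leaving out remote pig 1, 2 or 3 or infarcted pig 1 or 3 raised the adjusted p of the unpaired fit to as much as 0.0603. The blocked fit of all arrays gave CS an adjusted p of 0.00892. Its cluster is also annotated to the locus LOC100738034, so the signal may hold RNA from both.

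The NAD-linked isocitrate dehydrogenase is built from a catalytic alpha subunit, IDH3A, and the beta and gamma subunits, IDH3B and IDH3G, with gamma known for allosteric regulation. IDH3A was at 5.62, 5.73, 5.79 and 4.35 in the remote samples and at 3.87, 3.85, 3.74 and 3.09 in the infarcted ones, as log2 signals of pigs 1 to 4. In both tissues pigs 1 to 3 were nearly equal and pig 4 lay clearly lower, and the tissues did not overlap. IDH3A fell by 1.74 (SE 0.34, adjusted p = 0.0142) or 3.33-fold, and leaving out remote pig 1, 2 or 3 raised the adjusted p to at most 0.0547. The blocked fit of all arrays gave IDH3A an adjusted p of 0.00179. Its signal in infarcted pig 4, at 3.09, was below that array's median of 3.22, so it was dim there.

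IDH3B had the largest mean change of the 7 members. Its log2 signals were 8.45, 8.66, 8.97 and 7.56 in remote tissue and 6.24, 6.44, 6.29 and 5.56 in infarcted tissue. The changes were −2.21, −2.22, −2.68 and −2.0 in pigs 1 to 4, so pig 4 lost almost as much as pigs 1 and 2, and there was no overlap. The signal fell by 2.28 on the log2 scale (SE 0.32, adjusted p = 0.00299), leaving 20.6% of the remote level. No single array decided this call, since the adjusted p stayed at or below 0.0156 whichever 1 was left out. The cluster is annotated to LOC100624447 as well as to IDH3B.

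IDH3G behaved differently in pig 4 from the other subunits. Its remote log2 signals were 7.38, 7.09, 7.39 and 6.49, and its infarcted ones 5.82, 5.67, 5.41 and 6.25. Infarcted pig 4 was the highest infarcted sample and remote pig 4 the lowest remote one, only 0.24 apart, while the changes of pigs 1 to 3 lay between −1.98 and −1.42. The change was −1.30 over all pigs (SE 0.27, adjusted p = 0.0183) and −1.65 without pig 4 (adjusted p = 0.000644). The call was lost without remote pig 1, 2 or 3 or infarcted pig 1, 2 or 3, with adjusted p up to 0.0699. The blocked fit of all arrays gave IDH3G an adjusted p of 0.0206. A second, dimmer cluster of IDH3G fell by 1.38 (adjusted p = 0.0163), and there too pig 4 changed least, by −0.39.

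IDH2, the NADP-linked mitochondrial isocitrate dehydrogenase, showed the tightest infarcted samples of any member. They were at 6.59, 6.75, 6.75 and 6.80, an SD of 0.09 (n = 4), against remote values of 8.42, 8.40, 8.79 and 7.92 with an SD of 0.36. Infarcted tissue of pig 4 was thus level with that of the other pigs, while its remote tissue was the lowest of the 4. IDH2 fell by 1.66 (SE 0.23, adjusted p = 0.00256) or 3.16-fold, the tissues did not overlap, and the call held with any 1 array left out (adjusted p up to 0.0143). Its second cluster gave a fall of 1.74 (SE 0.23).

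SUCLA2, the ADP-forming beta subunit of succinyl-CoA synthetase, which couples the formation of succinate to the making of ATP, varied most between pigs. Its log2 signal was 6.23, 6.30, 5.44 and 3.50 in remote pigs 1 to 4 and 4.10, 4.86, 3.90 and 2.75 in the infarcted samples. Infarcted pigs 1, 2 and 3 all lay above remote pig 4, and infarcted pig 4 was below its array's median. Over the pigs as unpaired samples the difference was −1.46 (SE 0.61, 95% confidence interval −2.81 to −0.12, adjusted p = 0.241) and did not pass. With the pig as a block in limma the same difference had an SE of 0.25 and an adjusted p of 0.00683. Without remote pig 4 alone it was −2.09 (adjusted p = 0.0164).

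The order of the changes was then read within each pig, where both samples share the heart. These are differences between changes, not between levels, because signals of different probes are not on 1 scale. All 21 pairs of members and 1 comparison of the 2 kinds of isocitrate dehydrogenase were examined with an exact 2-sided sign-flip permutation test over the 4 pigs. With 4 pigs the smallest p this test can give is 0.13 (rounded), which is 0.212 after Benjamini-Hochberg adjustment over the 22 comparisons, so no pair could pass 0.05. In 12 of the 21 pairs the difference had 1 direction in all 4 pigs.

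IDH3B fell more than each of the 6 other members in every pig. Its change exceeded that of IDH3A by 0.54 ± 0.18 and that of IDH2 by 0.62 ± 0.21, both as the mean ± SD of 4 log2 differences (exact p = 0.13 for each). The excess over CS was 0.98 ± 0.26, and that over IDH3G was also 0.98 but with an SD of 0.53, because of pig 4. All 6 of these directions were kept in every pig after quantile normalization and with means over clusters. Among the 3 subunits of the NAD-linked enzyme, IDH3A also fell more than IDH3G in 4 of 4 pigs (by 0.44 ± 0.42). That direction depends on the cluster, since the second cluster of IDH3G changed by −2.14 in pig 3, where IDH3A changed by −2.05. No difference between subunits could pass the test.

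**Figure D2:**
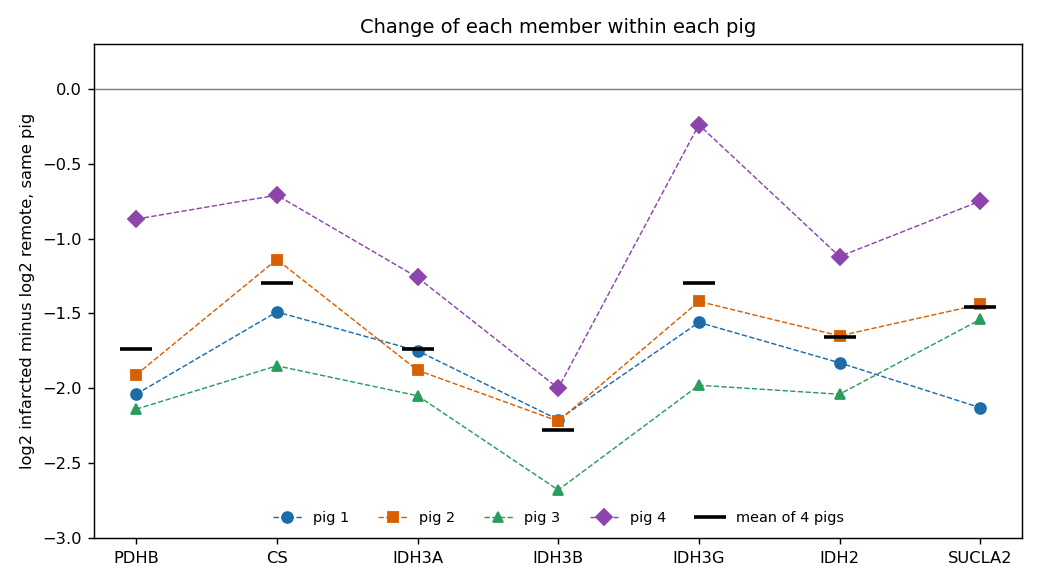
Change of each member within each pig, as log2 infarcted minus log2 remote signal, with pyruvate entry at the left and the cycle in order of steps towards the right (black bars, mean of 4 pigs). IDH3B is the lowest point of every pig, and pig 4 has the smallest change in every member.

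The NADP-linked and the NAD-linked enzyme differed little on average. The change of IDH2 minus the mean change of IDH3A, IDH3B and IDH3G was 0.01, 0.19, 0.20 and 0.05 in pigs 1 to 4, a mean of 0.11 ± 0.10 (SD, n = 4 pigs). The NAD-linked mean fell more in all 4 pigs, by a small margin (exact p = 0.13, adjusted p = 0.212). That direction depends on the cluster of IDH2. Its second cluster changed by −1.87 in pig 2 and −1.20 in pig 4, against −1.65 and −1.12 for the cluster used. With it, and the brighter cluster of IDH3G, the direction reverses narrowly in both of these pigs. With means over clusters the NAD-linked mean fell more in 4 of 4 pigs, by 0.08 ± 0.08. Among the single subunits IDH2 lay between them: it fell less than IDH3B in 4 of 4 pigs, more than IDH3G in 4 of 4 (0.36 ± 0.36), and close to IDH3A, from which it differed by 0.08 ± 0.14 with 3 pigs one way and 1 the other. The direction against IDH3G depends on the cluster here too, with −2.14 for its second cluster and −2.04 for IDH2 in pig 3. With 4 pigs these data do not show that IDH2 and IDH3A change alike.

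Along the pathway the mean changes did not run in 1 direction from step to step. PDHB fell more than CS, of the step after it, by 0.44 ± 0.27 in 4 of 4 pigs (adjusted p = 0.212). PDHX, another subunit of the pyruvate dehydrogenase complex, had a mean change of −1.32, close to the −1.30 of CS, and in pig 1 it changed less than CS did (−1.13 against −1.49). CS in turn fell less than IDH2 (by 0.36 ± 0.13), IDH3A and IDH3B in all 4 pigs. In order of mean change came IDH3B, then PDHB and IDH3A, then IDH2, SUCLA2, IDH3G and CS. The neighbours after IDH3B in that order did not differ beyond their spread over pigs. PDHB and IDH3A differed by −0.01 ± 0.29 (exact p = 1.0), IDH2 and SUCLA2 by −0.19 ± 0.35 (exact p = 0.375), and CS and IDH3G by 0.00 ± 0.33 (exact p = 1.0). SUCLA2 had a fixed direction in all 4 pigs against IDH3B only.

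The size of the change also varied between pigs. The mean change of the 7 members was −1.86 in pig 1, −1.67 in pig 2, −2.04 in pig 3 and −0.99 in pig 4. The smaller change of pig 4 came with a lower remote mean, 6.31 against 7.55 to 7.62 in the others, while its infarcted mean of 5.31 was nearer to the others' 5.51 to 5.96. Remote pig 4 was the lowest remote sample in 7 of 7 members. Among transcripts of like signal in pigs 1 to 3 (within 0.5 log2 units), the median was lower in remote pig 4 as well, with differences of −1.12 to −0.65.

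Against those transcripts the members split. In remote pig 4 SUCLA2 differed from the mean of pigs 1 to 3 by −2.49 log2 units, where like transcripts differed by −0.71 and 2.37% of them were lower still. PDHB differed by −1.82 and IDH3A by −1.36, with 16.5% and 17.8% of like transcripts lower still. CS, IDH2 and IDH3G, at −0.75, −0.62 and −0.80, lay at or above the median of their like transcripts (−1.12, −0.97 and −0.88), and IDH3B at −1.13 was close to its own (−0.97). After quantile normalization SUCLA2, PDHB and IDH3A stayed lower in remote pig 4 (−2.32, −1.20 and −0.93), and IDH2 was level with the other pigs, at 0.01. In the infarcted samples the members of pig 4 ranged from −1.54 against the other pigs (SUCLA2) to 0.62 above them (IDH3G).

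**Figure D3:**
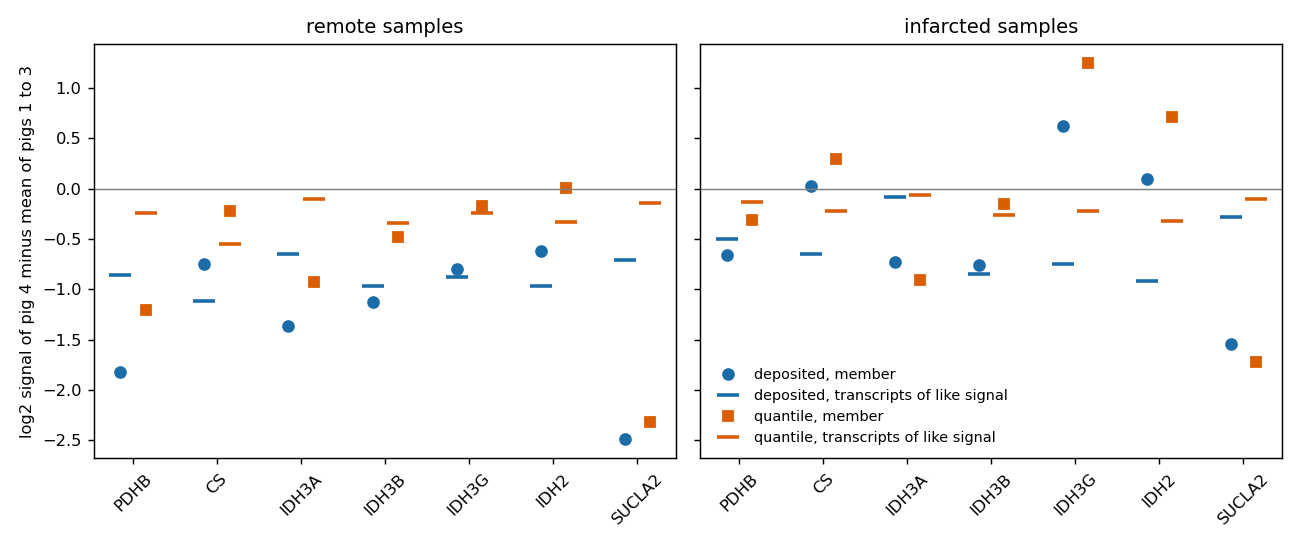
Log2 signal of pig 4 minus the mean of pigs 1 to 3 for each member, in remote (left) and infarcted (right) samples, as deposited and after quantile normalization, with bars for the median of transcripts of like signal. SUCLA2, PDHB and IDH3A lie below their bars in remote tissue, and IDH3G and IDH2 lie furthest above theirs in infarcted tissue.

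The other genes of the pathway were taken from lists of 46 genes for pyruvate entry, the cycle and its side reactions, of which 20 are named, 13 of them beside the members. Of these 13, 8 fell, 0 rose and 5 did not pass, at a median change of −1.64. By the same limit 3.42% of the array fell and 2.47% rose. The same selection on the contrast applies to these genes, so nothing is read from their counts, here or by step below. With the pig as a block 11 of the 13 fell, beside 5.66% of the array. Without pig 4, 11 fell and 1 rose, beside 7.48% and 6.89% of the array.

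At pyruvate entry, 4 of the 6 named genes fell, PDHB among them, beside 3.42% of the array. PDK4, the kinase that switches pyruvate dehydrogenase off and is induced by fatty acid use, had log2 signals of 9.68, 8.79, 8.90 and 8.26 in remote tissue and 6.68, 6.08, 6.13 and 5.43 in infarcted tissue. The change was −3.0, −2.71, −2.77 and −2.83 in pigs 1 to 4, nearly the same in each. PDK4 fell by 2.83 (SE 0.34, adjusted p = 0.00143). PDHX, which anchors the dihydrolipoamide dehydrogenase component in the complex, fell by 1.32, and PDPR, the regulatory subunit of the phosphatase that switches the complex back on, by 1.69. Leaving out remote pig 1, 2 or 3 ended either call (adjusted p up to 0.0836), as did infarcted pig 1 or 3 for PDHX. In the blocked fit of all arrays the adjusted p was 0.0068 for PDHX and 0.00448 for PDPR. The pyruvate carrier subunit MPC2 was at −1.64 (adjusted p = 0.0617) and the dihydrolipoamide dehydrogenase DLD at −1.51 (adjusted p = 0.126), and these did not pass. With the block they did, at 0.0131 and 0.0165, as they did without pig 4, at 0.00322 and 0.0179. PDHB, the inhibiting kinase PDK4 and the phosphatase's regulatory subunit PDPR were lower in infarcted tissue. The catalytic subunits of that phosphatase, PDP1 and PDP2, are not named. The clusters of PDPR and MPC2 are also annotated to LOC100525578 and MIR9810.

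Within the cycle 6 of the 9 named genes fell, beside 3.42% of the array. SUCLG1, the alpha subunit that partners SUCLA2, fell by 1.41 (SE 0.28, adjusted p = 0.0147), and its infarcted samples lay between 4.55 and 4.88. That call was lost without remote pig 1, 2 or 3 or infarcted pig 3 (adjusted p up to 0.0568). In the blocked fit of all arrays the adjusted p of SUCLG1 was 0.00528. DLST, of the alpha-ketoglutarate dehydrogenase complex, was at −1.06 (adjusted p = 0.120, 0.0186 with the block and 0.00397 without pig 4). SDHD, a membrane anchor of succinate dehydrogenase, was at −1.42 with an adjusted p of 0.183 and was lower in 3 of 4 pigs, and 5 of its 8 values were below their array's median. The other listed cycle enzymes, OGDH, FH and MDH2 among them, were not analysed here.

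Around the cycle 4 of the 5 named genes fell, beside 3.42% of the array. GOT1 and GOT2, the cytosolic and mitochondrial aspartate aminotransferases of the malate-aspartate shuttle, had log2 fold changes of −2.64 and −2.17 (adjusted p = 0.000764 and 0.0078). SLC25A11, the carrier that exchanges malate for alpha-ketoglutarate in that shuttle, fell by 1.80 (adjusted p = 0.0193). Its adjusted p was up to 0.0723 with 1 array left out, and 0.0092 in the blocked fit of all arrays. NNT, which makes mitochondrial NADPH beside IDH2, went from 8.19, 8.12, 8.54 and 7.63 in remote tissue to 6.33, 6.46, 6.36 and 5.92 in infarcted tissue. It fell by 1.85 (SE 0.24, adjusted p = 0.00224), with changes of −1.66 to −2.18 over the 4 pigs, so both named mitochondrial sources of NADPH were lower in the infarct of each pig. ACLY, which splits citrate in the cytosol for lipid synthesis, had the 1 positive value, 0.74 (adjusted p = 0.184). It was higher in the infarct of pigs 1 to 3 and lower in that of pig 4, and without pig 4 it rose by 1.13 (adjusted p = 0.00418), as 6.89% of the array did.

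**Figure D4:**
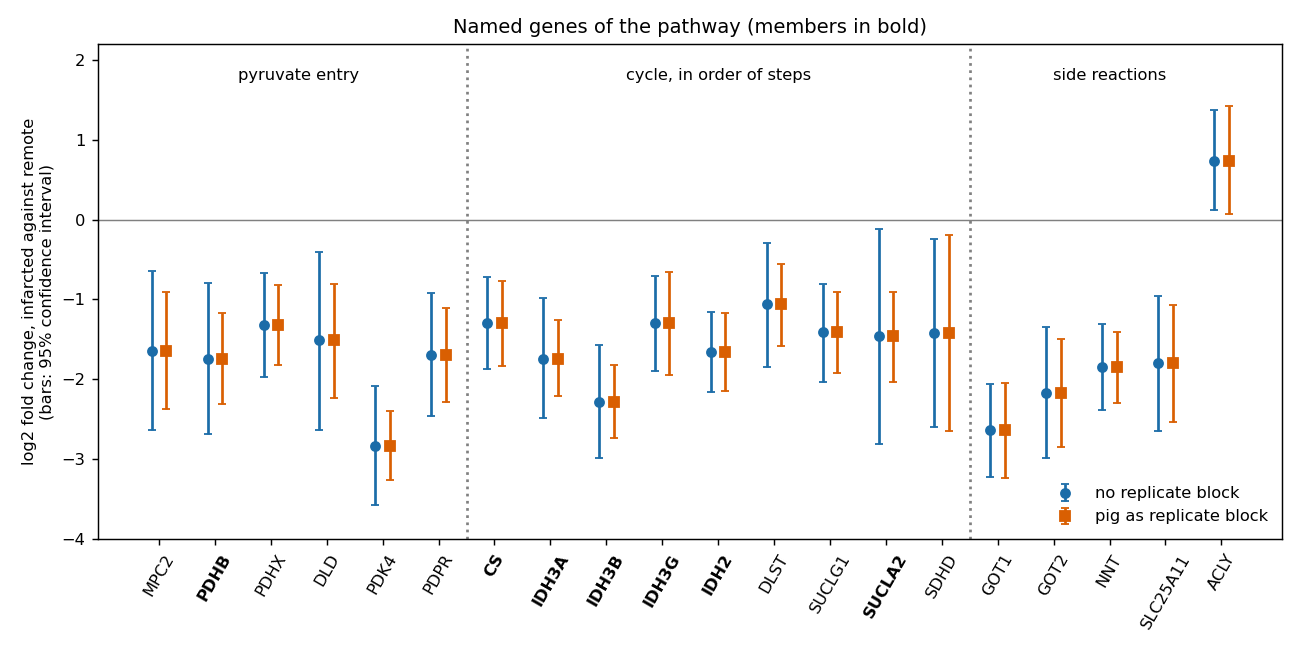
Log2 fold change, infarcted against remote, of the 20 named genes of the pathway in order of steps (members in bold), with 95% confidence intervals from limma without and with the pig as a block. ACLY is the only gene above 0, and the intervals of PDHB and SUCLA2 are narrower with the block.

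Markers of cell types moved with the same contrast, but they too are named only where they passed the selection on it. A marker that differed little could not be named, so their counts and medians are a description. Over the array 3.42% of transcripts fell and 2.47% rose. Of 16 cardiomyocyte markers 10 are named, and 6 of them fell, at a median of −2.30 on the log2 scale. Their summed linear signal was 11800 to 22000 in remote and 1830 to 9250 in infarcted samples, so the tissue carried its defining markers in both regions. MYBPC3 fell by 3.43 and RYR2 by 2.88, while MYH7, at −1.54, did not pass (adjusted p = 0.0716). Of 13 fibroblast and matrix markers 6 are named and 5 rose, with a median of 2.79 and sums of 156 to 899 in remote and 2670 to 6500 in infarcted samples. All 6 named macrophage and monocyte markers, of 12 listed, rose, with a median of 1.95 and sums of 163 to 203 against 359 to 1060. None of the named genes of these 3 lists was below the array median in all remote samples. None of the 7 endothelial markers is named. Of 5 smooth muscle markers 3 are named (2 rose and 1 fell, sums of 83.2 to 129 against 152 to 455), and of 6 neutrophil markers 2 are named (1 rose, sums of 11.6 to 14.2 against 18.5 to 149).

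Over the pigs the named cardiomyocyte markers changed on average by −2.65, −1.83, −3.75 and −0.90 in pigs 1 to 4. The members changed by −1.86, −1.67, −2.04 and −0.99, so both were largest in pig 3 and smallest in pig 4. The members' changes spread over about 1 log2 unit and those of the markers over nearly 3. Fibroblast and matrix markers rose by 2.59 to 3.25, most in pig 4. The part of these cell types in the members' lower signals was not tested.

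**Figure D5:**
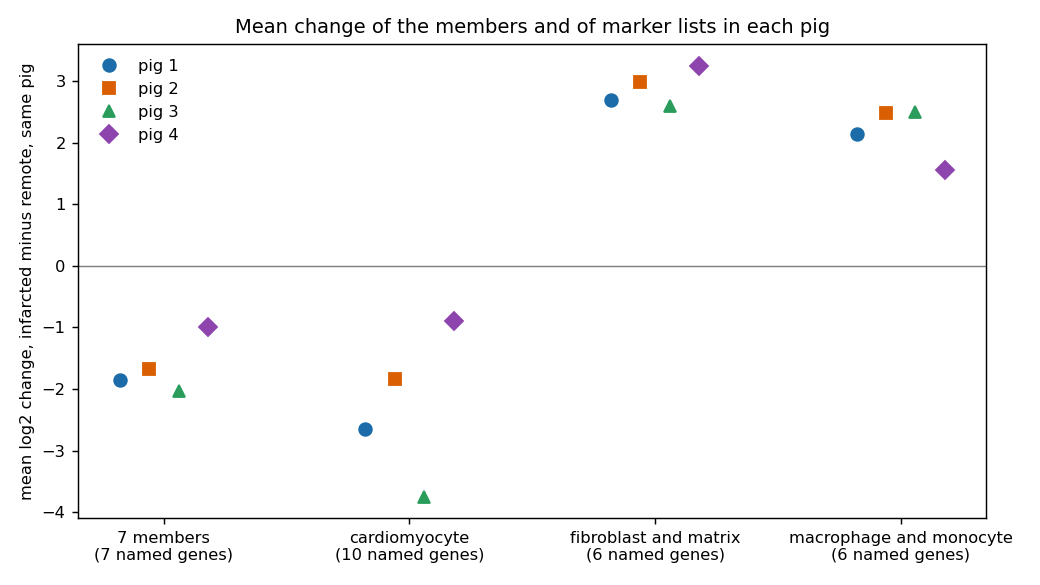
Mean log2 change within each pig, infarcted minus remote, of the 7 members and of 3 lists of cell type markers. The members and the cardiomyocyte markers lie below 0 in all 4 pigs and are nearest to 0 in pig 4, and both other lists lie above 0.

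The members' profiles over the 8 samples resembled each other and share the difference between tissues. The Pearson r of each with the mean of the others ran from 0.834 for SUCLA2 and 0.876 for IDH3G to 0.986 for IDH3A. Among 1321 named genes outside the pathway lists, the profiles most like the members' mean were those of HADH (r = 0.993), PTPN4 (0.991), ATP5A1 (0.991), MYL7 (0.990) and APOBEC2 (0.989), over 8 samples that share tissue and pig. All 1321 were named through the selection on the same contrast, so nothing is read from the height of r. HADH acts in mitochondrial fatty acid oxidation, ATP5A1 is the alpha subunit of ATP synthase and MYL7 is a myosin light chain of the atria. The clusters of PTPN4 and APOBEC2 are also annotated to an unnamed locus. HADH had 8.69, 8.86, 8.41 and 7.53 in remote and 6.78, 6.94, 6.56 and 6.34 in infarcted samples, with the lower remote value of pig 4 seen in the members.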

How the data were processed

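RNA of 4 infarcted and 4 remote samples was measured on 1 array each. Normalization by the authors was done in the Transcriptome Analysis Console (version and summarisation method not given in the sources used here), and they deposited log2 signals per transcript cluster, which were used unchanged. The number of arrays limits the precision. The authors' comparison table (group averages, fold changes, p-values, enrichment terms) gave gene symbols only. Its averages equal the Tukey biweight mean of the log2 values within 0.02 in 100% of cases, which links both files. Of its 2331 clusters 1375 carry 1 symbol, and 111 placeholder loci took a symbol from RefSeq, giving 1342 genes. A gene is represented by its cluster with the highest mean signal.

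The fit was made by limma 3.58.1 under R 4.3.3 (region as the only factor, all 25470 clusters, Benjamini-Hochberg, 6 residual and 4.86 prior degrees of freedom). Rose and fell mean an adjusted p under 0.05. On simulated data with 200 clusters changed by 2 log2 units, 168 were called, 162 of them changed ones. That change is larger than the mean change of every member but IDH3B. The simulated noise was independent between arrays, so neither the pairing nor the narrower spread of pig 4 was included. Both samples of a pig come from 1 heart per the labels, and their deviations from the group means correlated (r of 0.113 to 0.441, each above that with any other pig), so the numbers pair the samples. Tables and figures used Python 3.11.15, pandas 2.3.3, numpy 2.4.6 and matplotlib 3.10.9. The members, lists, comparisons and naming rule (members, named pathway genes, up to 3 examples per marker list, 5 likest genes) were chosen with earlier results of these data known. A listed gene is not reported here and enters no list count. Alternatives were the pig as replicate block, quantile normalization, median centring, a filter on low signals, other moderation, array weights, means over clusters, and leaving out arrays or pigs.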

Additional observations from a re-analysis of the deposited data

Results flagged for a closer look

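In 40 groups of 4 samples (20 named pathway genes in 2 tissues), 5 had 1 sample far from the other 3, by Dixon's test at its 95% critical value. Chance alone marks about 1 group in 20. Of these, 3 were the remote sample of pig 4, at a log2 signal of 9.19 for CS, 4.35 for IDH3A and 6.58 for SLC25A11, each below the other pigs. IDH3A was also far below the others in the infarcted sample of pig 4, at 3.09. DLD in infarcted pig 2, at 5.85, lay above the other infarcted samples.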

How the results depend on the processing

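Log2 fold changes of the 7 members were negative in all 133 values over the alternatives, and 93 kept their side of the adjusted p limit. Names exist only for transcripts selected on this contrast, and 4 pigs limit every test. IDH3A, SUCLA2, PDPR and SDHD were below the array median on 1, 1, 1 and 5 of 8 arrays. With the pig as replicate block SUCLA2 passed (−1.46, adjusted p = 0.00683), as it did with array weights (−1.78, 0.00741), and no other member's call changed under either. With median centring PDHB was lost (−1.77, 0.0766). The block gave 1441 transcripts that fell and 1163 that rose, and array weights 2136 and 1966, against 872 and 630.

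Leaving out 1 array or 1 pig gave log2 fold changes of −2.20 to −1.51 for PDHB, −1.49 to −1.11 for CS, −2.08 to −1.55 for IDH3A, −2.56 to −2.09 for IDH3B, −1.65 to −1.07 for IDH3G, −1.84 to −1.52 for IDH2 and −2.09 to −1.08 for SUCLA2. Members that passed then numbered 0 to 7, with 0 without pig 1, 2 without pig 2 or 3 or without remote replicate 1, 2 or 3, and 3 without infarcted replicate 1 or 3. Other pathway genes that fell numbered 2 (without pig 1) to 11, with 4 without pig 2 or 3 or remote replicate 1 or 2 and 5 without remote or infarcted replicate 3, against 8. Over the array 109 to 1906 transcripts fell and 59 to 1755 rose, the lowest without pig 1 and the highest without pig 4. The difference between IDH2 and the NAD-linked subunits stayed between 0.08 and 0.20, and the count of pairs with 1 direction in all pigs used was 11 with means over clusters and 12 to 16 with 1 pig left out, when only 3 pigs have to share it, against 12. The replicate block, the low-signal filter, the moderation, the array weights and the loss of a single array were not run for these within-pig differences, which do not come from the fit.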
